A study of Mus musculus with 696 samples.

Results

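This report describes 7 genes of the Ly6 and Slurp family in single keratinocytes of mouse tail skin before and after wounding. The members are Ly6a, Ly6d, Ly6e, Ly6g6c, Lypd3, Slurp1 and Slurp2, taken by name from a table of 15652 genes and 696 cells, and all 7 were present. None of their measured values was used to choose them, although earlier results of these data were known.

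The cells came from female mice of a mixed CBA C57BL/6 strain, 6 to 8 weeks old at labelling and 7 to 9 weeks old at the first wound, that carried Lrig1-EGFP-ires-CreERT2 and Rosa26-fl/STOP/fl-tdTomato. In all groups, controls included, tail skin was given hydroxytamoxifen once before any wound, so that cells expressing Lrig1, which marks stem cells of the follicle's upper part, and their progeny became tdTomato positive. A group therefore holds the progeny of Lrig1 cells and not the whole epidermis. The groups were unwounded skin (0w, 179 cells), 1 week after a first full-thickness wound (1w pw1, 168 cells), 8 weeks after it (8w pw1, 172 cells) and 1 week after a second wound at the same place (1w pw2, week 9 in the labels, 177 cells). The study asked whether cells far from a wound keep a trace of it, and here the question is how these surface and secreted proteins' transcripts behaved over 2 healings.

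Each group consisted of 2 plates of 79 to 91 cells with 12293182 to 19760820 estimated counts. The median per cell ranged from 64980 to 256588 counts and was higher on both 1w pw1 plates (180800 and 256588) than on any other. The median share of mitochondrial counts was 22.7% and 30.7% at 0w, 17.9% and 23.9% at 1w pw1, 18.2% and 22.1% at 8w pw1, and 14.3% and 13.0% at 1w pw2, and the part of depth or of this share in the members' changes was not tested beyond the thinning and the stricter filter on cells given with the results. The labels give each time point its own Rep letter, so a Rep letter and a time point cannot be told apart. The study used several mice per experiment, and the labels do not tie cells to mice, so p-values measure the spread between plates. All 6 markers of basal keratinocytes were detected on every plate. In counts per 1000000 counts (CPM), immune cell markers, of which 7 of 10 were measured, summed to 2.08 to 8.84 CPM on 7 plates and to 76.4 CPM on 1w pw2 replicate 2. Fibroblast markers (5 of 6 measured) stayed at 29.5 CPM or less, and the melanocyte (3 of 5) and Merkel cell (1 of 5) markers at 7.91 CPM or less.

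Ly6 proteins share a small fold in which cysteine bridges hold finger-like loops together. Most members are tied to the outer face of the cell membrane by a glycolipid (GPI) anchor, whereas the Slurp proteins lack the anchor and are secreted. In skin the family is known for Ly6a (Sca-1), an antibody marker of keratinocytes and of blood stem cells, and for SLURP1, whose loss in humans causes a thickening of palms and soles (Mal de Meleda). Lypd3 (C4.4A) is a protein of the suprabasal epidermis, and Ly6d was found as a keratinocyte antigen of desmosomes.

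The common ancestry is visible in the coding sequences. Near the end of the fold all 7 members hold a pair of neighbouring cysteine codons, and, after 4 codons in between, a further cysteine codon followed by an asparagine codon. These stretches of 8 codons are shown 5′ to 3′, because they are the shared signature by which the 7 genes form a family, and capitals mark the cysteine codons.
Ly6a: TGTTGCcaggaagacctcTGCaat
Ly6d: TGCTGCcagactgacctaTGCaac
Ly6e: TGCTGCcaaagctccttcTGCaac
Slurp1: TGTTGCttccgtgacctcTGCaac
Slurp2: TGCTGCcagtccaatctcTGCaac
Ly6g6c: TGCTGTgacaaggataacTGTaac
Lypd3: TGCTGTcagggcccccgcTGTaac
The first 5 of these genes lie within 273.7 kb of chromosome 15, Ly6g6c and Lypd3 elsewhere. The first codon shown is codon 98 of Ly6a, 86 of Ly6d, 98 of Ly6e, 93 of Slurp1, 88 of Slurp2, 118 of Ly6g6c and 217 of Lypd3, counted from the start codon of the longest coding transcript of the GENCODE annotation. Coding sequences ran from 291 bases in Slurp2 to 456 bases in Ly6g6c, with 10 to 12 cysteine codons, whereas Lypd3, which repeats the fold, had 1089 bases and 19 cysteine codons.

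In GRCm38 coordinates, Slurp1 spans chr15:74724318-74728034, Slurp2 chr15:74742764-74746693 and Ly6d chr15:74762056-74763620, all on the minus strand. Between Slurp1 and Slurp2 lie 14.7 kb. Ly6e lies at chr15:74955051-74959905 on the plus strand and Ly6a at chr15:74994877-74998031 on the minus strand. Ly6g6c lies at chr17:35065388-35070050 and Lypd3 at chr7:24636550-24641118, both on the plus strand. All 7 are protein-coding, with 3 to 6 annotated exons. Of the 75-base stretches in Ly6a transcripts, 6.33% also occur in Ly6c1 or Ly6i, and no other member shares such a stretch with another gene. The division of reads between Ly6a and Ly6c1 is therefore uncertain to that extent, and 90.4% of the Ly6a values were whole numbers against 99.1% to 100% in the other members.

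Levels are given as CPM, a gene's counts as a rate in the plate's total, after TMM scaling, from sums over all cells of a plate. Fold changes are those of edgeR over 8 plates, and a gene was called at an adjusted p below 0.05 and a change above 2-fold. In such sums, fewer cells that express a gene and less RNA per cell cannot be told apart. At 1w pw1 against 0w, 1 of the 7 members was called, and it was higher, beside 0.527% of the 13853 genes tested. The median log2 fold change was 2.18 over the members and -0.04 over all genes. Both 1w pw1 plates lay above both 0w plates for 6 members, which was the case for 23% of all genes (22.1% had both plates below, as did 0 members), and an unadjusted p below 0.05 was reached by 6 members and by 11.5% of all genes. The exception in both counts was Ly6e. DESeq2 called 5 members (5.22% of all genes) and the replicate block 4 (1.7%).

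**Figure D1:**
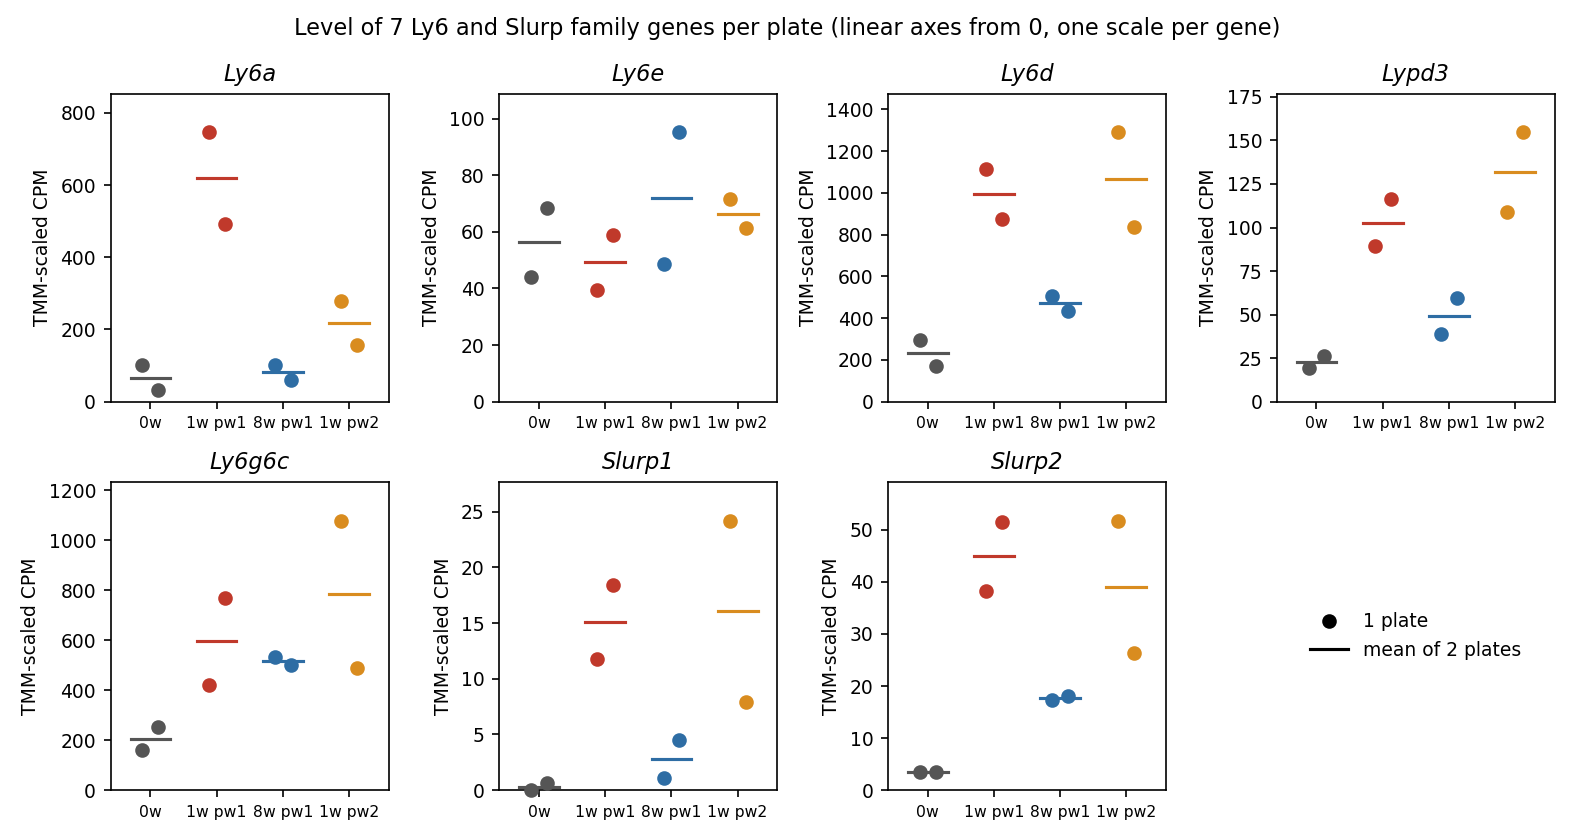
TMM-scaled CPM (linear axes starting at 0, a scale for each gene) of the 7 members in the 4 groups, with 1 point per plate and a line at the mean of 2 plates. In 6 genes both 1w pw1 plates lie above both 0w plates, and in Ly6e every wounded group overlaps with 0w.

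Slurp2, a secreted member that binds acetylcholine receptors of keratinocytes, was the called member. It stood at 3.43 and 3.56 CPM on the 0w plates and at 38.3 and 51.5 CPM at 1w pw1. At 8w pw1 it stood at 17.3 and 18.1 CPM, and at 1w pw2 at 51.8 and 26.3 CPM. The order of the groups was 0w, then 8w pw1, then both 1-week groups, whose plates overlapped. Slurp2 rose at 1w pw1 by 3.68 on the log2 scale (SE 0.54, adjusted p 0.0311, edgeR). That call was lost without 0w replicate 1 (0.187), 0w replicate 2 (0.19), 1w pw1 replicate 1 (0.133) or 1w pw1 replicate 2 (0.179). It was also lost with every cell scaled to the same total, where the change was 1.74 (adjusted p 0.272). With a stricter filter on cells, which left 9 of 91 cells on 0w replicate 2, the call was lost at 2.25 (0.469).

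Few cells carried the transcript. At 8w pw1 a single cell held 66.7% of the Slurp2 counts of replicate 1 and 87.0% of those of replicate 2. At 0w the counts were 66 on each plate, from 4 and 3 cells. Against 0w the change at 8w pw1 was 2.34 (SE 0.54, adjusted p 0.609) and that at 1w pw2 was 3.48 (SE 0.54, adjusted p 0.055, and 0.032 with the replicate block).

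Slurp1, the secreted neighbour of Slurp2, was the rarest member. It had 0 counts on 0w replicate 1 and 12 counts, from 2 cells, on 0w replicate 2, or 0 and 0.647 CPM. Its level was 11.8 and 18.4 CPM at 1w pw1, 1.08 and 4.50 CPM at 8w pw1, and 24.2 and 7.93 CPM at 1w pw2. The plates of both 1-week groups lay above all plates of the other groups. In edgeR the fitted change against 0w was 5.52 for 1w pw1 (adjusted p 0.141) and 5.61 for 1w pw2 (adjusted p 0.165), each with an SE of 1.24, values that depend on the few counts at 0w and were not called. On the 6 plates from wounded skin a single cell held 33.3% to 81.2% of the Slurp1 counts.

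Among the anchored members Ly6a had the largest fold change at 1w pw1 against 0w. Its levels were 102 and 31.5 CPM at 0w, 747 and 493 CPM at 1w pw1, 102 and 60.3 CPM at 8w pw1, and 278 and 156 CPM at 1w pw2. The 0w and 8w pw1 plates overlapped, both 1w pw2 plates lay above them, and both 1w pw1 plates lay above all others. At 1w pw1 against 0w the change was 3.21 (SE 0.61), with an adjusted p of 0.0721 in edgeR and 0.00819 with the replicate block, under which Ly6a was called. From 1w pw1 to 8w pw1 it was -2.93 (SE 0.61, adjusted p 0.14, and 0.0216 with the replicate block). At 1w pw2 it was 1.70 against 0w (SE 0.61, adjusted p 0.308) and -1.52 against 1w pw1 (SE 0.61, adjusted p 0.781). The study lists Ly6a among the markers of its transition cluster, a choice made on these same cells. Its close relative Ly6c1, which shares reads with it, stood at 5.56 and 1.13 CPM at 0w and at 71.9 and 30.2 CPM at 1w pw1.

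Ly6d and Lypd3 moved alike. Ly6d stood at 296 and 169 CPM at 0w, 1112 and 876 CPM at 1w pw1, 508 and 435 CPM at 8w pw1, and 1291 and 837 CPM at 1w pw2. Lypd3 stood at 19.2 and 26.1 CPM at 0w, 89.4 and 116 CPM at 1w pw1, 38.6 and 59.7 CPM at 8w pw1, and 109 and 155 CPM at 1w pw2. In both genes 0w was lowest, 8w pw1 came next, and the plates of the 1-week groups overlapped above them. The change at 1w pw1 was 2.10 for Ly6d (SE 0.46, adjusted p 0.0961, and 0.0188 with the replicate block) and 2.18 for Lypd3 (SE 0.48, adjusted p 0.0963, and 0.0287 with the replicate block). At 1w pw2 against 0w it was 2.20 for Ly6d (SE 0.46, adjusted p 0.124, block 0.027) and 2.54 for Lypd3 (SE 0.48, adjusted p 0.0849, block 0.0272). With the replicate block all 4 of these changes were called.

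Ly6g6c, an anchored member encoded in the major histocompatibility region, is in the study's list of markers of the epidermis between the tail scales. It stood at 160 and 251 CPM at 0w, 422 and 771 CPM at 1w pw1, 535 and 501 CPM at 8w pw1, and 1080 and 488 CPM at 1w pw2. All 6 plates from wounded skin lay above both 0w plates and overlapped among themselves. No contrast of Ly6g6c was called in edgeR. Against 0w its change, with an SE of 0.52 each time, was 1.54 for 1w pw1 (adjusted p 0.272), 1.33 for 8w pw1 (adjusted p 0.737) and 1.93 for 1w pw2 (adjusted p 0.189).

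Ly6e, an anchored member known as a gene induced by interferon, stood apart from the others. Its plates held 44.1 and 68.5 CPM at 0w, 39.6 and 59.0 CPM at 1w pw1, 48.7 and 95.3 CPM at 8w pw1, and 71.7 and 61.2 CPM at 1w pw2. The plates of every wounded group overlapped with those of 0w, and both 1w pw2 plates lay above both 1w pw1 plates. For Ly6e edgeR gave changes against 0w of -0.19 for 1w pw1 (adjusted p 0.945) and 0.24 for 1w pw2 (adjusted p 0.899), both with an SE of 0.52. The direction of either change turned under other settings.

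**Figure D2:**
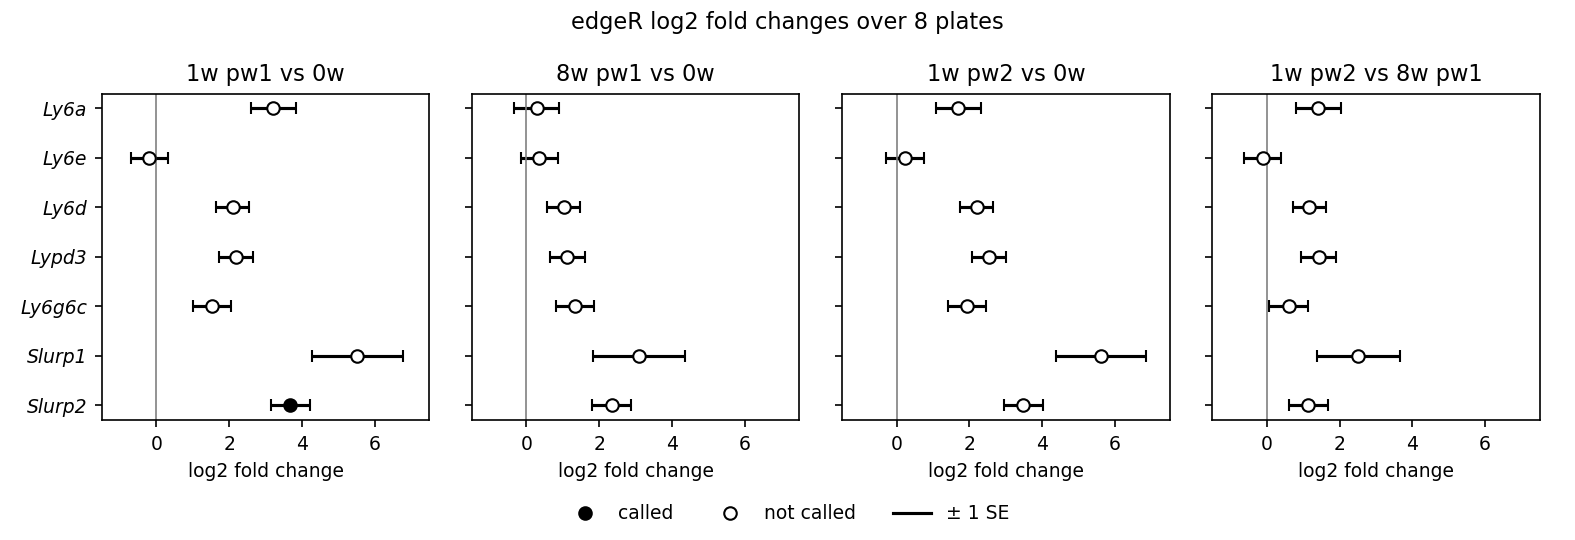
edgeR log2 fold changes of the 7 members in 4 contrasts, with ± 1 SE, from 8 plates. The filled point, Slurp2 at 1w pw1 against 0w with 3.68, is the only call, and Ly6e lies within 1 SE of 0 in every contrast shown.

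In the remaining contrasts no member was called with edgeR. At 8w pw1 against 0w, where 0% of all genes were called, 4 members had an unadjusted p below 0.05 (6.48% of all genes) and DESeq2 called 1, Slurp2 (1.12% of all genes). Both 8w pw1 plates lay above both 0w plates in 5 members, against 17.8% of all genes (15.6% had both below), and overlapped for Ly6a and Ly6e. At 1w pw2 against 0w (0.267% of all genes called), 6 members had an unadjusted p below 0.05 (12.6% of all genes), the replicate block called 3 (0.693%) and DESeq2 called 5 (4.97%). Both 1w pw2 plates lay above both 0w plates in 6 members, against 21.5% of all genes, and below them in 0, against 19.4%. These contrasts share the 0w plates with that of 1w pw1.

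The return from 1w pw1 to 8w pw1 (0.115% of all genes called) gave 3 members with an unadjusted p below 0.05 (11.1% of all genes), all 3 negative. DESeq2 (4.05% of all genes) and the replicate block (0.794%) each called 1, Ly6a. For 5 members the 8w pw1 plates were both lower than either 1w pw1 plate and for 0 both higher, against 20.3% and 21.5% of all genes. From 8w pw1 to 1w pw2 (0.00722% called) 3 members had an unadjusted p below 0.05 (7.94% of all genes), namely Ly6d with a change of 1.17, Lypd3 with 1.42 and Ly6a with 1.42, and DESeq2 called 0 (2.03%). Both 1w pw2 plates lay above both 8w pw1 plates in 5 members and below them in 0, against 16.8% and 16.3% of all genes.

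The second healing was also compared with the first directly. Between 1w pw2 and 1w pw1 (0% called) 1 member, Ly6a, had an unadjusted p below 0.05 (6.01% of all genes), and DESeq2 called 0 (0.296%). The 1w pw2 plates were both lower than either 1w pw1 plate for Ly6a (17.4% of all genes) and both higher for Ly6e (19.9%). The change over the second healing minus that over the first was negative in 6 of 7 members, from -3.00 in Slurp1 to -0.76 in Lypd3, and 0.08 in Ly6e. In that difference (0% called) only Slurp2 had an unadjusted p below 0.05, with -2.54 (SE 0.76, adjusted p 0.886, edgeR). That level was reached by 5.34% of all genes, and DESeq2 called 0 members and 0.556% of all genes. A larger change in the first healing was thus not established for any member.

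Per kilobase of transcript the members differed widely in level. At 1w pw1, on the longest annotated transcript, Ly6d stood at 1336 CPM per kb, Ly6a at 649, Ly6g6c at 620, Slurp2 at 82.4, Lypd3 at 62.3, Ly6e at 21.6 and Slurp1 at 5.28. The order depends on the transcript used, since on the shortest transcripts Ly6a stood at 1845 CPM per kb, above Ly6d at 1336, and Ly6e at 114.

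A sum can be carried by few cells, so the share of cells with at least 1 count was taken after each cell had been thinned to 25000 counts, which left 631 cells. Shares differed among the 4 time points for 6 of 7 members in an exact one-sided permutation test of the F statistic over 105 partitions of the plates, at an exact p below 0.05, as did 9.77% of the 13853 genes tested. In 3 of them, Ly6d, Slurp2 and Lypd3, the exact p was 0.00952, the smallest that the test can give. With the time points permuted within each replicate number, a test added after seeing the data with 24 arrangements and a smallest exact p of 0.0417, that smallest value was reached by Ly6d, Slurp2, Lypd3 and Ly6e, and not by Ly6a (0.0833), Ly6g6c (0.0833) or Slurp1 (0.125). That value was reached by 7.77% of all genes. Without thinning, the mean shares at 0w and 1w pw1 were 69.3% and 95.3% for Ly6d, 39.7% and 88.8% for Lypd3, 3.92% and 27.7% for Slurp2, 29.1% and 71.5% for Ly6g6c, 32.5% and 54.4% for Ly6a, and 65.3% and 57.5% for Ly6e. For Slurp1 they were 1.10% and 14.97%. The 95% Wilson intervals cover counting error alone, as PCR copies of a molecule could not be told from separate molecules.

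Ly6d was the most widespread member. It was found in 65.1% and 64.1% of cells on the 0w plates, 94.9% on each 1w pw1 plate, 79.5% and 78.3% at 8w pw1, and 91.6% and 86.4% at 1w pw2. Its 8w pw1 shares lay between those of unwounded skin and those of both 1-week groups. Lypd3 was found in 23.3% and 25.6% at 0w, 60.3% and 66.7% at 1w pw1, 46.2% and 34.8% at 8w pw1, and 68.7% and 81.5% at 1w pw2. In Lypd3 the plates of no group overlapped with those of another, and 1w pw2 was highest, whereas Ly6d was highest at 1w pw1.

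Slurp2-positive cells made up 3.49% and 2.56% at 0w (upper bounds 9.76% and 8.88%), 15.4% and 19.2% at 1w pw1, 7.69% and 8.70% at 8w pw1, and 26.5% and 19.8% at 1w pw2. Slurp1-positive cells made up 0 of 86 cells (Wilson upper bound 4.28%) and 1.28% at 0w, 7.69% and 11.5% at 1w pw1, 1.28% and 2.90% at 8w pw1, and 16.9% and 11.1% at 1w pw2, with an exact permutation p of 0.0476. For both secreted members the share at each 1-week group exceeded that at 0w and at 8w pw1 on every plate. With a threshold of 5 counts in place of 1, the exact permutation p was 0.114 for Slurp2 and 0.429 for Slurp1.

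Ly6g6c-positive cells made up 25.6% on each 0w plate, 57.7% and 65.4% at 1w pw1, 34.6% and 29.0% at 8w pw1, and 65.1% and 64.2% at 1w pw2 (exact permutation p 0.0286, and 0.0571 with a threshold of 5 counts). The share at 8w pw1 was closer to that of 0w than to those of the 1-week groups, while its CPM level overlapped with the 1-week groups. The median count in positive cells was 38 and 19 per 25000 at 8w pw1, against 16 and 7 at 0w, 14 and 12 at 1w pw1, and 27 and 16.5 at 1w pw2.

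Ly6a-positive cells made up 31.4% and 21.8% at 0w, 53.8% and 47.4% at 1w pw1, 30.8% and 24.6% at 8w pw1, and 39.8% and 43.2% at 1w pw2 (exact permutation p 0.0381, and 0.143 after thinning to 50000 counts). Positive cells also held more of it at 1w pw1, with a median of 11.5 and 14 counts per 25000, against 4 to 7 on all other plates. Ly6e-positive cells ranged from 33.3% on 1w pw1 replicate 1 to 63.8% on 8w pw1 replicate 2, with an exact permutation p of 0.171 over all plates and of 0.0417 within replicate numbers. On both replicates the order of the Ly6e shares was 8w pw1, 0w, 1w pw2 and 1w pw1, from high to low.

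**Figure D3:**
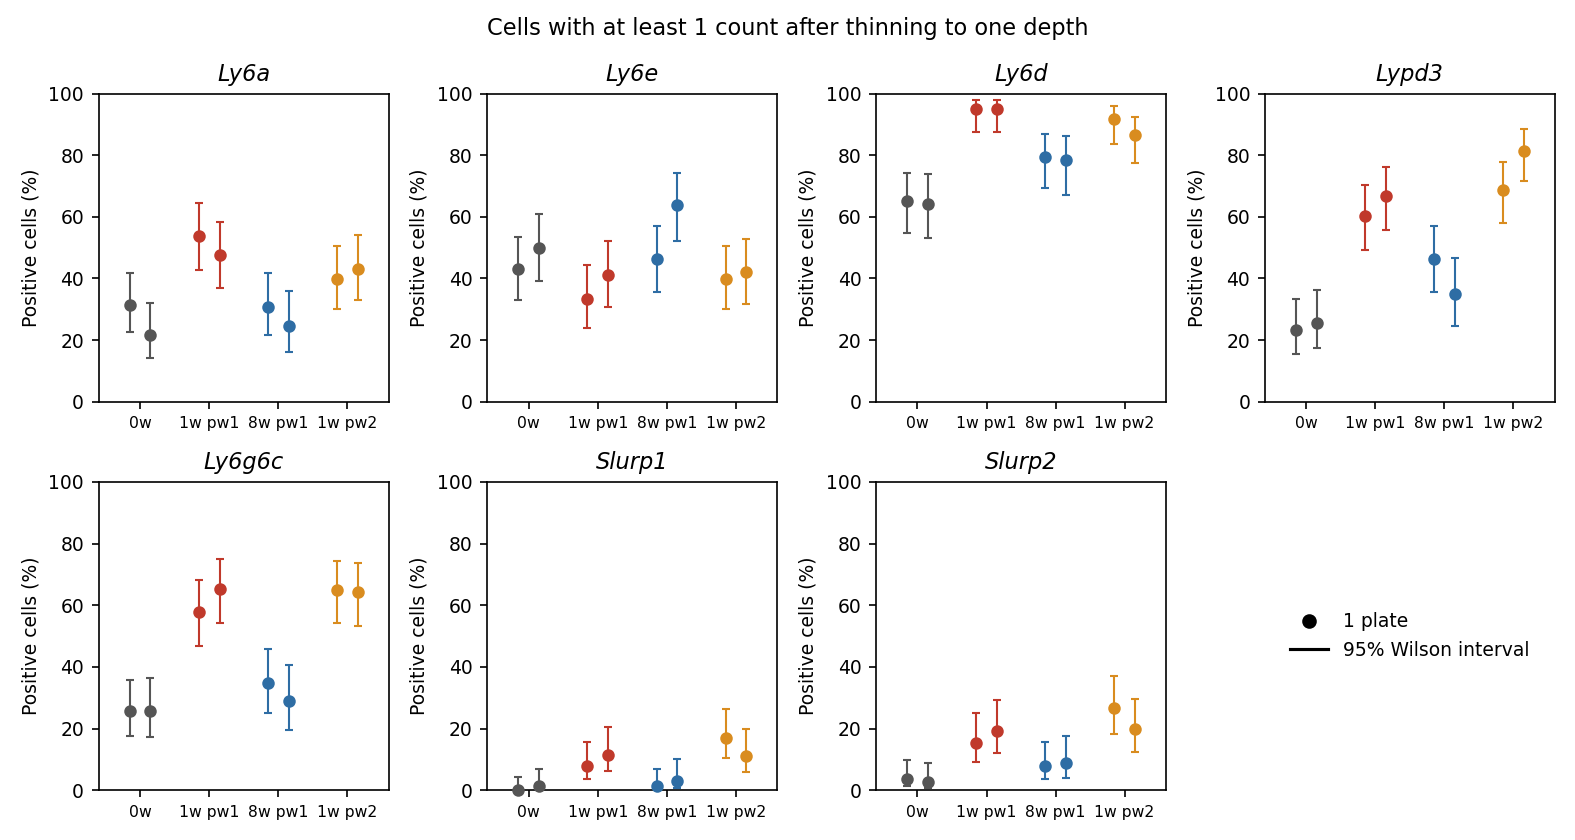
Percentage of cells with at least 1 count after thinning to 25000 counts, 1 point per plate with its 95% Wilson interval. Ly6d, Lypd3, Ly6g6c and both Slurp genes are more widespread in each 1-week group than at 0w and 8w pw1, whereas the Ly6e shares of each 1-week group lie below the 0w and 8w pw1 plates of the same replicate.

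The number of members per cell was also counted. Cells positive for at least 5 of the 7 members numbered 1 and 1 on the 0w plates (1.16% and 1.28%), 11 and 16 at 1w pw1 (14.1% and 20.5%), 5 and 4 at 8w pw1 (6.41% and 5.80%), and 23 and 23 at 1w pw2 (27.7% and 28.4%). All 7 members were found in 3 cells at 1w pw1 and in 1 cell at 1w pw2. Cells with none of the 7 numbered 19 of 164 at 0w and 2 of 164 at 1w pw2.

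Co-expression within plates is given as a description, since cells of a plate share library and depth. The strongest pair was Slurp1 and Slurp2, with a mean Spearman rho of 0.51 over 7 plates (0.27 to 0.69), and 31 of 42 Slurp1-positive cells were also Slurp2-positive, against 8.66% of Slurp1-negative cells. All 42 Slurp1-positive cells held both Ly6d and Ly6g6c. Ly6d and Lypd3 followed with 0.49 over 8 plates (0.36 to 0.63), then Ly6g6c with Lypd3 (0.42) and with Ly6d (0.39).

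Ly6a and Ly6g6c ran against each other. Their mean rho was -0.28, negative on all 8 plates (-0.46 to -0.12), and Ly6g6c was found in 39.7% of 232 Ly6a-positive cells and in 49.9% of 399 Ly6a-negative cells, with a lower share on 8 of 8 plates. Ly6a did go with Ly6d (0.30). Ly6e was unrelated to Ly6d (-0.04) and ran weakly against Ly6g6c (-0.18).

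**Figure D4:**
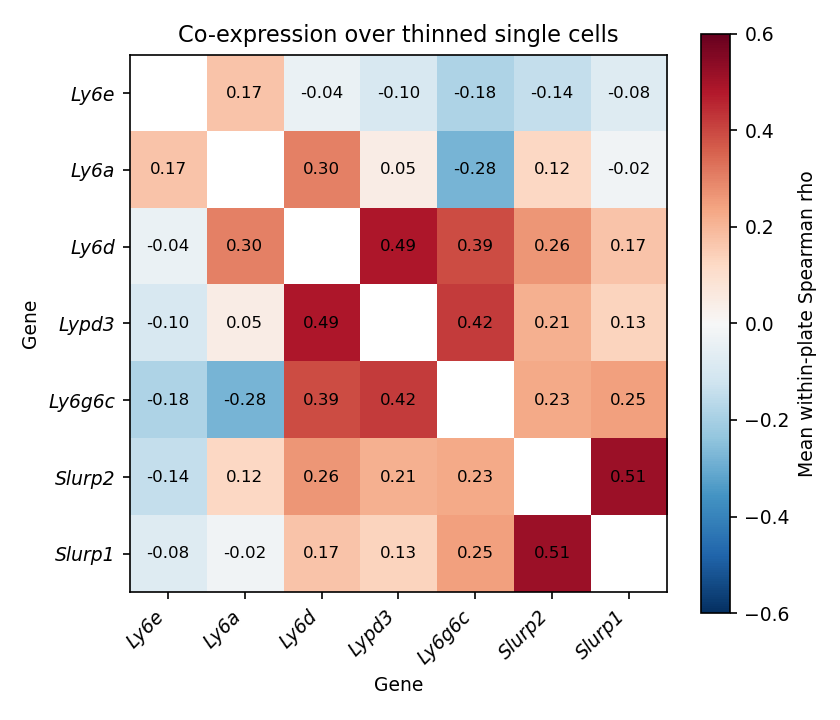
Mean within-plate Spearman rho between members over thinned cells (8 plates, 7 for pairs with Slurp1), with blue for negative and red for positive values. Slurp1 with Slurp2 (0.51) and Ly6d with Lypd3 (0.49) are the highest pairs, and Ly6a with Ly6g6c (-0.28) is the lowest.

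The genes most like each member were found by the same measure, the mean within-plate rho over thinned cells, among 5103 genes, those found in at least 20% of thinned cells, the members themselves left out. Values with Slurp1, Cstdc5 and Sprr2a2 rest on 7 plates. For Ly6g6c these were Cst6 (0.81), a cystatin of cornifying cells, Defb6 (0.73), a defensin, Psapl1 (0.68), Spink5 (0.66), a protease inhibitor of the skin barrier, and Gltp (0.65). For Ly6d they were Calm4 (0.66), a calmodulin-like protein of differentiating epidermis, Lgals7 (0.62), Fam25c (0.58), Krtdap (0.55) and Rab25 (0.54). Lypd3 was led by Calm4 (0.49) as well, then by Gltp (0.47), Jup (0.46), a desmosome protein, Sfn (0.46) and Rab25 (0.44).

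Slurp2 was most like Oas1f (0.50), the suprabasal keratin Krt1 (0.42), Mt4 (0.40), Dapl1 (0.39) and the suprabasal keratin Krt10 (0.38). Slurp1 was most like Oas1f (0.36), Elovl4 (0.33), a maker of very long fatty acids, Tmprss4 (0.32), Dsc1 (0.30) and Calm4 (0.28). Ly6a had other neighbours, Cstdc5 (0.59), Fam162a (0.55), Stfa3 (0.52), Mt4 (0.47) and Sprr2a2 (0.47), and its lowest value was that with Krt79 (-0.46), a keratin of the follicle duct. Ly6e was most like Arhgdib (0.35), Atp5b (0.34), Ifitm3 (0.31), Hspa8 (0.31) and Rps2 (0.29). Its lowest values were those with the desmosome genes Dsp (-0.34) and Perp (-0.33).

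To see which cells held the members, cells were clustered without them, and clusters were named from marker genes. Levels by class are descriptions without a test, as means over cells scaled equally to 1000000 counts, for classes with at least 5 cells on a plate. Duct-like clusters (186 cells) were led by Krt79 and Defb6, and also by Cst6 except in a cluster of 39 cells. Suprabasal-like clusters (159 cells) were led by Krt1 and Krt10, and the wound-activated-like cluster (51 cells) by Krt6a, Krt6b, Krt16 and S100a8. Further classes were basal-like (78 cells, Krt5 and Col17a1), sebaceous gland-like (60 cells, Scd1 and Mgst1), bulge-like (50 cells, Krt15 and Lgr5) and cycling-like (25 cells, Mki67 and Top2a), and 87 cells stayed unnamed. The leading genes of the basal-like cluster also held Krt15 of the bulge list and Aldh3a1 of the junctional zone list. Postn, a marker of the infundibulum in the study, was another. Wound-activated-like levels come from 1w pw1 and 1w pw2 plates alone. Basal-like, bulge-like and sebaceous gland-like levels come from 0w and 8w pw1 plates alone. Between these sets of classes, cell class and time point cannot be told apart.

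Ly6g6c had its highest mean in duct-like cells, at 1444 CPM (SD 499, 8 plates), against 503 CPM (SD 318, 8 plates) in suprabasal-like cells. In basal-like, bulge-like and sebaceous gland-like cells Ly6g6c stood at 5.45 CPM or less. At 0w Ly6g6c stood at 842 and 717 CPM in duct-like and at 559 and 808 CPM in suprabasal-like cells, which overlapped, unlike at the other time points. It was found in 85.6% of duct-like cells and in 19.6% of wound-activated-like cells. It was also found in 68.2% of suprabasal-like cells. Ly6a differed in the duct-like and wound-activated-like cells. It stood at 975 CPM (SD 424, 4 plates) in wound-activated-like cells, 310 CPM (SD 142, 8 plates) in suprabasal-like, 161 CPM (SD 91.2, 4 plates) in basal-like and 9.96 CPM (SD 16.9, 8 plates) in duct-like cells, and it was found in 94.1%, 73.5%, 49.3% and 5.75% of their cells.

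Both Slurp genes had their highest mean in suprabasal-like cells. Slurp2 stood at 100.3 CPM there (SD 55.2, 8 plates), at 19.8 CPM (SD 28.0) in duct-like cells and at 3.05 CPM in wound-activated-like cells. Suprabasal-like cells supplied 72.4% of the summed Slurp2 level over all groups and 59.7% of that of Slurp1. Shares within a group rested on few cells. At 8w pw1 duct-like cells supplied 50.7% of Slurp2 and 66.3% of Slurp1, with 3 Slurp2-positive and 2 Slurp1-positive cells among 42 thinned duct-like cells, and at 1w pw2 58.2% of Slurp1, with 5 positive cells among 56. In basal-like and sebaceous gland-like cells Slurp1 was found in 0 of 73 and 0 of 58 thinned cells.

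Ly6d was broad, at 1900 CPM (SD 699, 8 plates) in suprabasal-like, 1200.1 CPM (SD 266, 4 plates) in wound-activated-like, 912 CPM (SD 291, 8 plates) in duct-like and 283 CPM (SD 97.7, 4 plates) in basal-like cells, and it was found in 100% of suprabasal-like and duct-like cells. Lypd3 was alike in wound-activated-like (162 CPM, SD 76.9), suprabasal-like (122 CPM, SD 49.6) and duct-like cells (113 CPM, SD 42.2), whose plates overlapped, and at 6.93 CPM in basal-like cells. Ly6e had no stable top class: its mean in wound-activated-like cells (165 CPM, SD 119) came from 55.2 to 103 CPM at 1w pw1 and 172 to 329 CPM at 1w pw2, and with finer clusters basal-like cells led (168 CPM). It was the only member with a mean higher in sebaceous gland-like cells (132 CPM, SD 55.1) than in suprabasal-like (41.0 CPM, SD 40.7) and duct-like cells (34.6 CPM, SD 15.6).

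**Figure D5:**
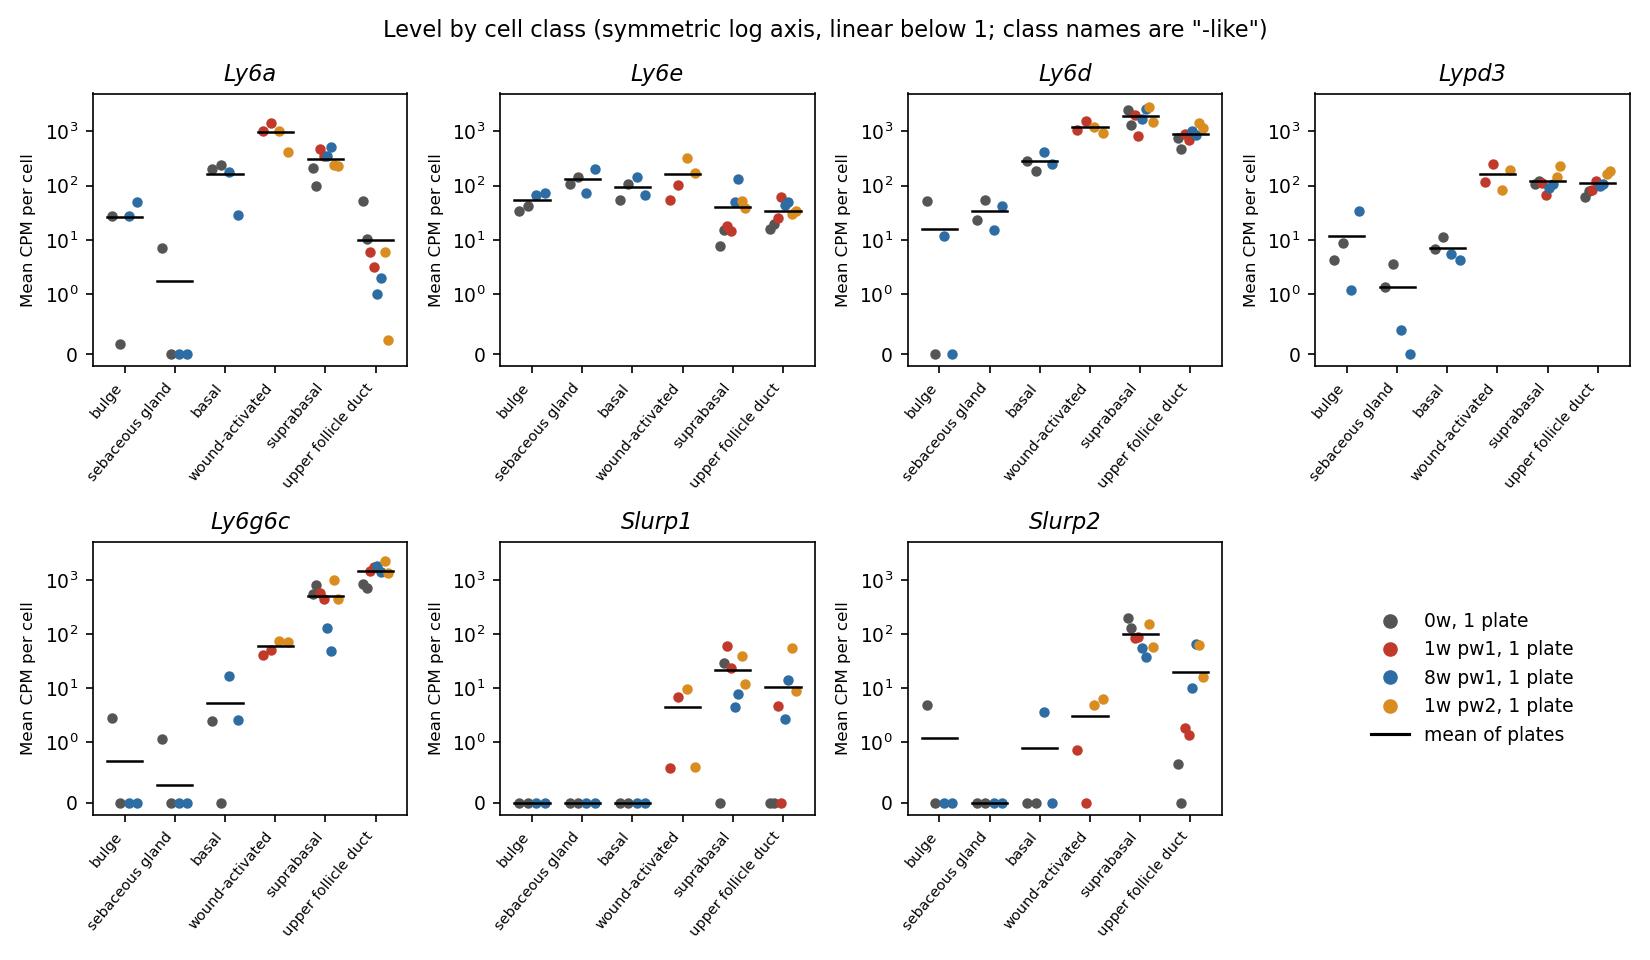
Mean CPM over equally scaled cells in 6 cell classes (symmetric log axis, linear below 1), 1 point per plate with at least 5 cells, coloured by time point, with a line at the mean over plates. By the mean over plates, Ly6g6c is highest in duct-like cells, Ly6a in wound-activated-like cells, and the Slurp genes in suprabasal-like cells.

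Duct-like and suprabasal-like cells were the classes present on all 8 plates, so members could be followed within them. In duct-like cells Ly6g6c stood at 717 to 842 CPM on the 0w plates and at 1326 to 2228 CPM on the 6 other plates, with no overlap. Ly6d stood at 480 to 751 CPM at 0w, 695 to 886 CPM at 1w pw1, 866 to 1037 CPM at 8w pw1 and 1168 to 1410 CPM at 1w pw2 in these cells. Lypd3 was likewise lowest at 0w (62.7 to 78.8 CPM) and highest at 1w pw2 (164 to 184 CPM). Slurp2 in duct-like cells was at 1.84 CPM or less on the plates of 0w and 1w pw1, and at 9.90 to 64.6 CPM on those of 8w pw1 and 1w pw2, where it was found in 2 of 24, 1 of 18, 4 of 31 and 2 of 25 thinned duct-like cells. The duct-like clusters made different contributions to the groups. The cluster led by Krt79 and Bhlhe41 held 11 of 35 duct-like cells at 0w and 3 of 44 at 1w pw1. At 8w pw1 it held 13 of 47, and at 1w pw2 12 of 60.

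In suprabasal-like cells the order was another. Slurp2, the member called between the plate sums, stood at 129 to 199 CPM in these cells at 0w, 85.5 to 87.1 CPM at 1w pw1, 37.3 to 54.7 CPM at 8w pw1 and 58.4 to 151 CPM at 1w pw2, so the 1w pw1 plates were not above those of 0w. Only 13 suprabasal-like cells came from 0w, against 58 from 1w pw1, 31 from 8w pw1 and 57 from 1w pw2. Slurp2 was found in 4 of 12 thinned suprabasal-like cells at 0w and in 24 of 56 at 1w pw1. At 8w pw1 it was found in 8 of 27, and at 1w pw2 in 29 of 56. Ly6a stood at 96.6 to 208 CPM in these cells at 0w and at 349 to 514 CPM at 8w pw1, and Ly6g6c at 49.0 to 129 CPM at 8w pw1 and at 441 to 1007 CPM in the other groups. Most suprabasal-like cells of 8w pw1 (28 of 31) lay in the cluster led by Krt2, and most of 0w (9 of 13) in the cluster led by Krt1 and Dapl1, so different clusters were compared.

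The makeup of the plates by cell class differed between groups. Basal-like cells numbered 28 and 23 at 0w, 12 and 15 at 8w pw1 and 0 on the 4 plates 1 week after wounding. Bulge-like cells numbered 15 and 15, 12 and 6, and at most 1. For sebaceous gland-like cells the numbers were 14 and 23, 6 and 12, and at most 3. The basal-like and bulge-like counts depended on the clustering and on the naming rule. An unnamed cluster of 57 cells was led by Krt15 and Krt5, 1 bulge and 1 basal marker, too few for a name. It held 2 and 2 cells at 0w, 11 and 8 at 1w pw1, 6 and 6 at 8w pw1, and 9 and 13 at 1w pw2. With finer clusters (resolution 2), the larger basal-like cluster held 0 cells on the 1-week plates. A smaller one held 2 and 1 at 1w pw1 and 7 and 2 at 1w pw2. The bulge-like cluster then held 2 and 8 cells at 0w, 2 and 3 at 8w pw1, and 3 on each 1-week plate. Suprabasal-like cells numbered 6 and 7 at 0w and 24 to 33 on the 1-week plates, and wound-activated-like cells 0 on the 0w and 8w pw1 plates and 8 to 22 on the 1-week plates. Without TMM scaling, the 6 suprabasal markers summed to 3194 and 3369 CPM at 0w, 34904 and 36979 CPM at 1w pw1, 6566 and 5098 CPM at 8w pw1, and 18645 and 27549.8 CPM at 1w pw2. The 6 wound-activated markers summed to 59.3 and 55.2 CPM at 0w, with 3 and 2 of them at 0, and to 22605 and 9401 CPM at 1w pw1, 795 and 383 CPM at 8w pw1, and 2755 and 4157 CPM at 1w pw2. Of the endothelial markers 3 of 5 were measured, and their sum was that of 1 gene, Pecam1, with TMM-scaled levels of 473 and 873 CPM at 0w, 197 and 109 CPM at 1w pw1, 856 and 1846 CPM at 8w pw1, and 308 and 911 CPM at 1w pw2. Kdr stayed at 0.261 CPM or less and Vwf at 1.33 CPM or less. Bulge markers summed to 802 to 1062 CPM at 0w and to 222 to 399 CPM at 1w pw1. At 8w pw1 they summed to 718 to 723 CPM and at 1w pw2 to 755 to 922 CPM. Basal markers summed to 1604 to 2403 CPM at 0w and 3379.6 to 4295 CPM at 1w pw1. At 8w pw1 the basal sum was 4327 to 4626 CPM and at 1w pw2 3835 to 4602 CPM. Of the basal markers Krt14 alone had a higher mean at 1w pw1 than at 0w (4088 against 951 CPM after TMM scaling). The others had lower means, such as Krt5 (254 against 332 CPM) and Col17a1 (99.6 against 298 CPM). The part of any of these genes or classes in the members' plate levels was not tested.

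Other genes of the family and of linked pathways were examined in 4 lists, and edgeR called 0 genes of any list in any contrast. Of 37 further family members 18 were measured and 14 tested. At 1w pw1 against 0w, 3 of them were higher and 1 lower at an unadjusted p below 0.05, a level reached by 11.5% of all genes (5.45% higher), with a median change of 1.72 against -0.04 over all genes. The most abundant were Cd59a, an inhibitor of complement, with a mean of 39.6 CPM, and Lypd6b with 25.7 CPM. Cd59a stood at 42.6 and 41.1 CPM at 0w and 20.4 and 33.5 CPM at 1w pw1, Lypd6b at 6.59 and 23.1 CPM and at 53.1 and 43.1 CPM.

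Acetylcholine receptors and enzymes, the signalling system that Slurp proteins act on, were scarce. Of 26 genes 14 were measured and 8 tested, with 1 higher and 1 lower at an unadjusted p below 0.05 at 1w pw1 (11.5% of all genes) and a median change of -0.21. The most abundant were Bche, butyrylcholinesterase, with a mean of 9.10 CPM, and Chrna2, a nicotinic receptor subunit, with 3.03 CPM. Bche stood at 7.63 and 46.8 CPM at 0w and at 0.523 and 3.22 CPM at 1w pw1.

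The interferon response list (12 of 20 genes tested) had 0 genes higher and 1 lower at an unadjusted p below 0.05 at 1w pw1 (11.5% of all genes), with a median change of -0.39. Its most abundant gene, Ifitm3 (mean 75.7 CPM), a membrane protein that restricts virus entry, stood at 131 and 77.5 CPM at 0w, and at 66.1 and 53.4 CPM at 1w pw1. The genes that build and attach GPI anchors (26 of 27 tested) had 1 higher and 0 lower by the same measure (11.5% of all genes), with a median change of -0.16. Pigp (mean 212 CPM) and Dpm1 (183 CPM) led that list, at 214 and 344 CPM and at 154 and 235 CPM at 0w, and at 219 and 256 CPM and at 220.2 and 203 CPM at 1w pw1. In these lists, then, no gene passed the threshold that Slurp2 passed.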

How the data were processed

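Tail skin cells were sorted by flow cytometry for tdTomato, from tissue with the wound bed and distant hair follicles, and 1 cell per well was sequenced with Smart-seq2 (75-base single-end reads, no molecular identifiers). The authors deposited expected counts (estimated counts per gene and cell, not normalised), made with Salmon 0.13.1 on an Ensembl 101 annotation of GRCm38. Of the deposited values 96.6% were whole, 0 columns had no sample, and each of the 696 cells met the study's filter (1000 genes or more, no more than 50% of counts mitochondrial). Doublets were not called.

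For each plate the counts were added up over its cells, then rounded. The main fit used edgeR 4.0.16 (R 4.3.3) with the quasi-likelihood test, scaling by TMM, filterByExpr at its defaults and the time point as only term, over 8 plates and 7 contrasts, with Benjamini-Hochberg adjustment over 13853 genes. The fit left 4 residual degrees of freedom, at a biological coefficient of variation of 0.61. SEs come from the fitted weights. In a test of 2 plates against 2 an exact p cannot go below 0.333. The fit was tested on simulated data, and the outcome of that test is not given here. DESeq2 1.42.0 and other settings were run as alternatives. The stricter filter on cells asked for a minimum of 2000 genes and a maximum of 20% mitochondrial counts. It kept 313 of the 696 cells, with 9 on 0w replicate 2. Deviations of same-numbered plates from their group means correlated at 0.121 to 0.213 for every pair of time points, so the replicate numbers were taken to pair the plates, and the value with the replicate block is printed where it changes a call.

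Shares of positive cells were taken after thinning each cell to 25000 counts without replacement. Cells were clustered (leidenalg, resolution 1, 2000 variable genes, 20 components, 15 neighbours) without the 7 genes. A cluster took the name of the marker list with the most genes among its 10 leading genes, at least 2, with 3 markers detected in 10% of its cells, and a median depth of at least 0.333 of that of its plates. The naming rule was set with the clusters in view. The members and lists were chosen with earlier results of these data known. Named in every comparison are the 7 members, for each the 5 genes with the highest mean within-plate rho, and of each list the called genes or, without any, the 2 with the highest mean CPM, of which 1 is not reported here. Coordinates and coding sequences are from GENCODE M21 on GRCm38, matched by symbol for 7 of 7 members.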

Additional observations from a re-analysis of the deposited data

How the results depend on the processing

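Of the log2 fold changes of members, 366 kept direction and side of the threshold when 1 plate was left out, 22 reversed and 4 lost a call. Under other settings 308 kept both, 18 gained a call, 8 reversed and 2 lost a call. No called value reversed. At 1w pw1 against 0w, 1 member was called, and DESeq2 called 5 (with 723 of all genes, against 73), the replicate block 4 (with 236), equal scaling of cells 0 and a stricter filter on cells 0, with 0 to 1 when a plate was left out. At 8w pw1 against 0w DESeq2 called 1 in place of 0. At 1w pw2 against 0w DESeq2 called 5 and the replicate block 3 in place of 0, and at 8w pw1 against 1w pw1 each called 1 in place of 0. The block changed no other call of a fold change. Of 6 members whose share of positive cells differed among time points, 3 passed with a threshold of 5 counts and 3 with the replicate block, which also passed Ly6e, 4 members in all. The cause of these differences was not tested. The design had 2 plates per group and 4 residual degrees of freedom, with 1083 Slurp1 and 3342 Slurp2 counts in all. Small changes of these genes may have gone undetected, and the smallest detectable change is not given here.

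The changes that reversed were as follows. The stricter filter gave 0.85 for Ly6e at 1w pw1 against 0w, 0.66 for Ly6g6c at 8w pw1 against 1w pw1, -0.32 for Ly6g6c at 1w pw2 against 8w pw1, -0.13 for Ly6d and -0.67 for Slurp1 at 1w pw2 against 1w pw1, and -1.32 for Ly6e between the healings. Equal scaling gave -0.010 for Ly6e at 1w pw2 against 0w and 0.28 for Slurp2 at 1w pw2 against 1w pw1. Leaving out a plate, Ly6e ranged from -0.52 to 0.15 at 1w pw1, from -0.28 to 0.74 at 8w pw1 and from -0.074 to 0.57 at 1w pw2 against 0w, from -0.073 to 0.95 at 8w pw1 against 1w pw1, from -0.51 to 0.51 at 1w pw2 against 8w pw1 and from -0.31 to 0.71 between the healings. Ly6a ranged from -0.37 to 1.29 at 8w pw1 against 0w. Ly6g6c ranged from -0.60 to 0.26 at 8w pw1 against 1w pw1, from -0.075 to 1.11 at 1w pw2 against 8w pw1 and from -0.31 to 0.90 at 1w pw2 against 1w pw1. In that last contrast Ly6d ranged from -0.27 to 0.40, Slurp1 from -0.95 to 0.71 and Slurp2 from -0.79 to 0.23.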
